A study of Rattus norvegicus with 10 samples.

Results

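Long non-coding RNA (lncRNA) transcripts that stood at least 4 times higher in rat cerebral cortex after transient occlusion of the middle cerebral artery than after sham surgery are described here. They were chosen by measured values: a row of the lncRNA table was a member if its mean over the 5 MCAO/R libraries was at least 0.5 FPKM and at least 4 times the mean of the 5 sham libraries, and if it was above 0 in every MCAO/R library. The rule found 174 of 31183 lncRNA rows (0.558%), in 161 of 21955 loci. Because the contrast between the groups chose the members, every value of that contrast below is a description, and nothing is supported with it. The mirror image of the rule found 280 rows that were lower. Which direction held more rows turned with the scaling between libraries: median-ratio factors from the lncRNA rows gave 296 higher and 64 lower, quantile normalization 242 and 104, equal sums without the 20 highest rows 150 and 444, and factors from annotated transcripts 134 and 580.

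The 10 libraries came from cerebral cortex of male Sprague-Dawley rats aged 8 to 9 weeks and weighing 240 ± 20 g, per the labels. In the MCAO/R group, 5 libraries, the middle cerebral artery was occluded for 2 h and blood flow was then restored for 24 h. The sham group, 5 libraries, had sham surgery. Following the labels, MCAO/R libraries carry the replicate numbers 1 to 5 and sham libraries 6 to 10. The sources used here do not give whether each library came from its own animal, nor the side or region of cortex taken, so limma's p-values reflect only how these samples spread, which may be in part technical. Ribosomal RNA was removed from total RNA before a directional library was made.

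Transient occlusion of this artery followed by reperfusion is a widely used rodent model of ischaemic stroke, in which part of the cortex loses and then regains its blood supply. lncRNAs are transcripts without a recognised protein-coding reading frame. Many are made at low levels and in particular cell types, and some act in the nucleus on the expression of other genes, while for most no function is known. An assembler groups overlapping transcripts into a locus and numbers its isoforms, so MSTRG.69485.3 is isoform 3 of locus MSTRG.69485, and the isoforms of a locus share fragments that the quantification has to divide among them. All identifiers of the lncRNA table are of this kind and 0 matched a gene symbol, so the transcripts are named by identifier and no role can be given for them. The annotated transcripts of the mRNA table carry Ensembl transcript identifiers, of which 0 matched a symbol either, so the cortex label was not checked against cell type markers here. In bulk tissue a change in the number of cells of a type and a change in RNA per cell cannot be told apart. Sequences and genome positions of the transcripts were not used here.

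Most members were low. FPKM is a fragment number divided by transcript length and by the library total, so levels of different rows can be compared per length. The median member had a mean of 0.928 FPKM in MCAO/R and 0.0882 FPKM in sham libraries. In MCAO/R, 95 members were under 1 FPKM, 38 reached 2 FPKM, 20 reached 5 FPKM and 9 reached 10 FPKM. The median member ranked at 96.8% of the lncRNA table by its MCAO/R mean and at 29.8% by its sham mean. For the 154 members with a sham mean above 0, the ratio of means had a median of 10.9. It was at least 10 in 86 members and at least 50 in 25, and it lay between 4 and 6 in 40.

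**Figure D1:**
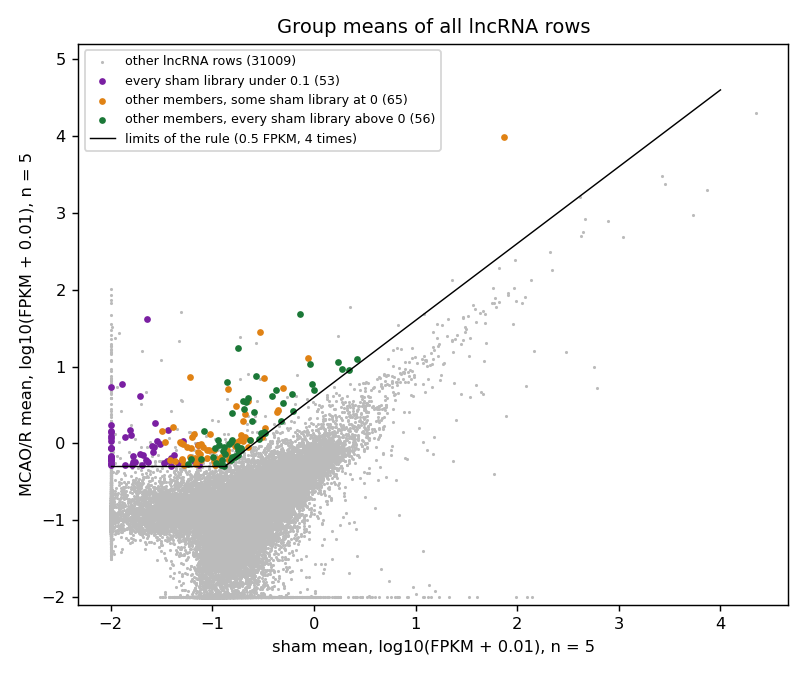
Mean level of each lncRNA row in sham (x axis) and MCAO/R (y axis) libraries, both as log10(FPKM + 0.01), n = 5 libraries each; grey points are other rows, coloured points are the 174 members by their sham levels, and black lines are the limits of the rule. Most members lie near the lower limit of 0.5 FPKM; of 454 rows past both lines, 280 are grey because at least 1 MCAO/R library was at 0.

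Rows close to the limits show how gradual the choice was. Just inside the fold limit, MSTRG.223990.1 stood at 1.27, 1.06, 0.849, 0.852 and 2.00 FPKM in MCAO/R replicates 1 to 5 and at 0.110, 0.498, 0.334, 0 and 0.553 FPKM in sham replicates 6 to 10, a ratio of 4.04. Just outside it, MSTRG.260197.10 averaged 0.559 FPKM in MCAO/R and 0.143 FPKM in sham libraries, a ratio of 3.92. At the level limit, MSTRG.12464.21 averaged 0.501 FPKM in MCAO/R and was a member, while MSTRG.71975.2 averaged 0.498 FPKM and was not. Of the 2 nearest rows on each side, both inside the fold limit had groups that did not overlap, as did MSTRG.22765.2 outside it but not MSTRG.260197.10. At the level limit, MSTRG.287689.2 inside and MSTRG.71975.2 outside did not overlap, while MSTRG.12464.21 inside and MSTRG.131572.1 outside did.

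On-off and graded differences were both present. Every sham library was under 0.1 FPKM in 53 members (30.5%), of which 20 were listed at 0 in all 5 sham libraries. A further 65 members (37.4%) had at least 1 sham library at 0 but reached 0.1 FPKM in another. The remaining 56 (32.2%) were above 0 in every sham library and reached 0.1 FPKM in at least 1. A listed 0 can be a failed estimate for 1 isoform as well as an absent transcript, and which of these it was here was not tested.

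The 53 members near silence in sham cortex had a median MCAO/R mean of 0.699 FPKM, against 1.24 FPKM for the 56 with sham signal throughout. These 56 had a median sham mean of 0.176 FPKM and a median ratio of 6.89. All 5 MCAO/R libraries reached 4 times the sham mean in 40 of the 53, in 14 of the 65 with a sham library at 0, and in 2 of the 56. A sham mean near 0 makes this mark easy to reach, so the order of the 3 classes follows in part from how they were defined.

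The highest of the members listed at 0 in sham cortex was MSTRG.55496.9. It stood at 1.26, 1.24, 0.561, 6.66 and 17.5 FPKM in MCAO/R replicates 1 to 5, with 0 in all 5 sham libraries. Replicates 4 and 5 were well above the others, and no fold is given against 0. MSTRG.89062.1, next in level, stood at 2.02, 0.0350, 1.98, 3.29 and 1.45 FPKM in MCAO/R replicates 1 to 5. Its replicate 2 lay close to the sham value of 0 while the other 4 lay between 1.45 and 3.29 FPKM. MSTRG.243530.1 stood at 0.912, 0.349, 1.07, 4.02 and 0.902 FPKM, and MSTRG.32303.3 at 2.56, 1.31, 0.418, 0.228 and 2.44 FPKM, again with 0 in every sham library. These last 2 were lowest in replicates 2 and 4, so the low library was not the same one in each.

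A few members differed at even levels. The member with the smallest spread among MCAO/R libraries, MSTRG.184744.1, stood at 0.756, 0.863, 0.788, 0.934 and 0.911 FPKM there and at 0.440, 0.123, 0.0738, 0.0208 and 0.260 FPKM in sham replicates 6 to 10. Its groups did not overlap, and its MCAO/R coefficient of variation was 0.0902 (n = 5). The next in evenness, MSTRG.71211.1 and MSTRG.964.1, averaged 0.858 ± 0.133 and 0.807 ± 0.198 FPKM in MCAO/R against 0.173 ± 0.144 and 0.169 ± 0.109 FPKM in sham libraries (SD, n = 5 each), also without overlap. All 3 differed by less than 5 times. Over whole classes the median coefficient of variation in MCAO/R was 0.864 for members near silence in sham cortex and 0.787 for those with sham signal throughout.

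**Figure D2:**
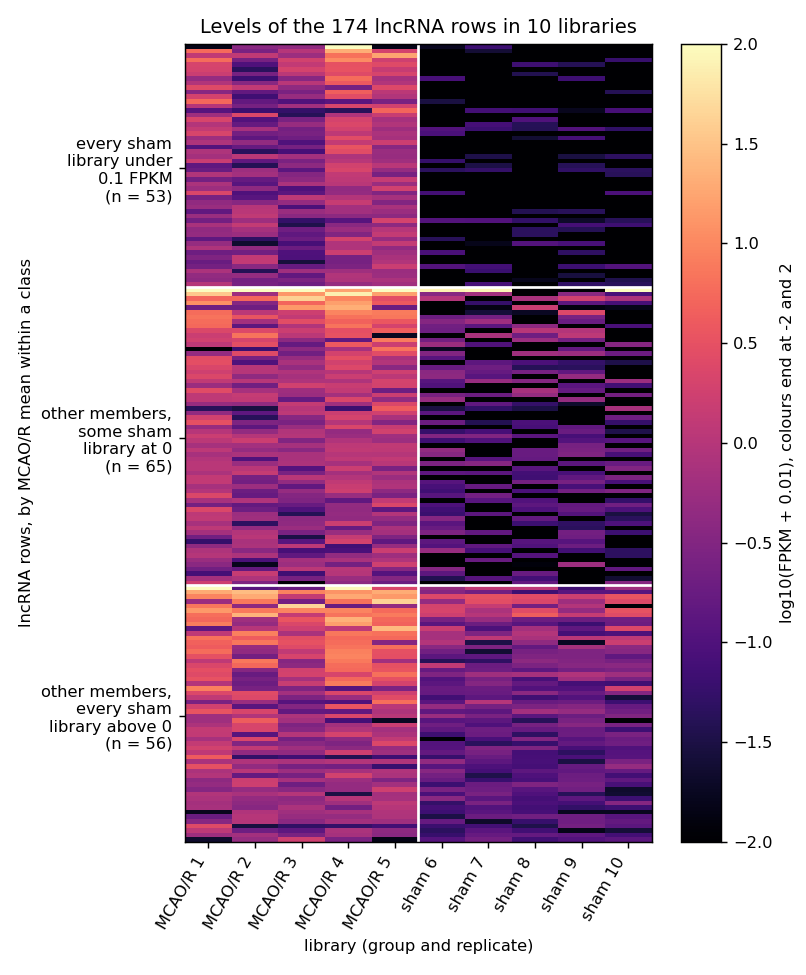
Level of each of the 174 members (rows, ordered by MCAO/R mean within a class) in the 10 libraries (columns), as log10(FPKM + 0.01). The top block holds 53 members under 0.1 FPKM in every sham library, the middle block 65 others with some sham library at 0, and the bottom block 56 others above 0 in every sham library; MCAO/R replicates 2 and 3 are darker than replicates 1, 4 and 5 in many rows.

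By median level, replicates 2 and 3 of MCAO/R carried less of these transcripts than the other 3. The sum over members was instead highest in replicate 2, at 35209 FPKM, of which MSTRG.236450.6 made up 34969 FPKM. Without that member the sums were 506, 240, 244, 817 and 393 FPKM in MCAO/R replicates 1 to 5. The median level of the members was 0.957, 0.475, 0.431, 1.12 and 0.903 FPKM in MCAO/R replicates 1 to 5, and between 0.0348 and 0.0715 FPKM in the sham libraries. Replicate 2 was the lowest MCAO/R library in 67 members (38.5%) and replicate 3 in 63 (36.2%). Among the 2094 other lncRNA rows of that MCAO/R level that were above 0 in all 5 MCAO/R libraries, the same replicates were lowest in 20.5% and 15.6%. Those other rows had medians between 0.650 and 0.815 FPKM in the 5 MCAO/R libraries, with replicate 3 the highest. Neither replicate 2 nor replicate 3 was the lowest library by the medians of those rows.

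The members were also split by which of the 2 libraries was the lowest, and the other library was read in each set. The 67 members lowest in replicate 2 had medians of 1.30, 0.153, 0.701, 1.98 and 1.15 FPKM in MCAO/R replicates 1 to 5, and 37 of them were highest in replicate 4. The 63 lowest in replicate 3 had medians of 0.959, 1.09, 0.217, 0.873 and 0.886 FPKM, and 21 of them were highest in replicate 2. In the first set replicate 3 was the second lowest by its median, and in the second replicate 2 had the highest median. These sets were formed from the values themselves after they were seen, cannot share a member, and are low in their own library by construction. Whether tissue composition, lesion size or handling differed between the libraries was not tested.

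Of the 8 members with the largest group differences on the log2(FPKM + 0.1) scale, 4 were lowest in MCAO/R replicate 2, 3 in replicate 3 and 1 in replicate 4. Those lowest in replicate 2 were all highest in replicate 4. MSTRG.44456.1, the only row of its locus, stood at 35.3, 0.579, 13.8, 75.9 and 16.1 FPKM in MCAO/R replicates 1 to 5 and at 0.342, 0.654, 0, 0.361 and 0.0739 FPKM in sham replicates 6 to 10. Replicate 2 lay inside the sham range and the other 4 MCAO/R libraries lay far above it. Its group means differed by 5.44 (SE 0.995) on that log2 scale. MSTRG.128663.1 stood at 11.8, 0.331, 5.10, 15.4 and 3.78 FPKM in MCAO/R, against at most 0.128 FPKM in sham libraries. MSTRG.85473.1 stood at 5.91, 0.245, 1.87, 10.98 and 1.72 FPKM, with sham replicates at 0 except for 0.0483 FPKM in replicate 10. In both, replicate 4 was the highest and replicate 2 the lowest MCAO/R library, and the groups did not overlap. MSTRG.61854.1, at 5.79, 0.257, 1.03, 21.0 and 1.93 FPKM in MCAO/R and 0.0150 FPKM in 1 sham library only, had the same order at both ends.

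The members with the largest and second largest log2 difference did not follow this order, both being highest in MCAO/R replicate 2: MSTRG.236450.6, described with its locus, at 7.05 (SE 2.49) and MSTRG.23643.1 at 6.04 (SE 0.353). MSTRG.23643.1 stood at 19.1, 28.2, 9.03, 12.4 and 19.9 FPKM in MCAO/R and at 0.340, 0.211, 0.0591, 0.117 and 0.111 FPKM in sham libraries. Its lowest MCAO/R library, replicate 3, was far above its highest sham library.

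**Figure D3:**
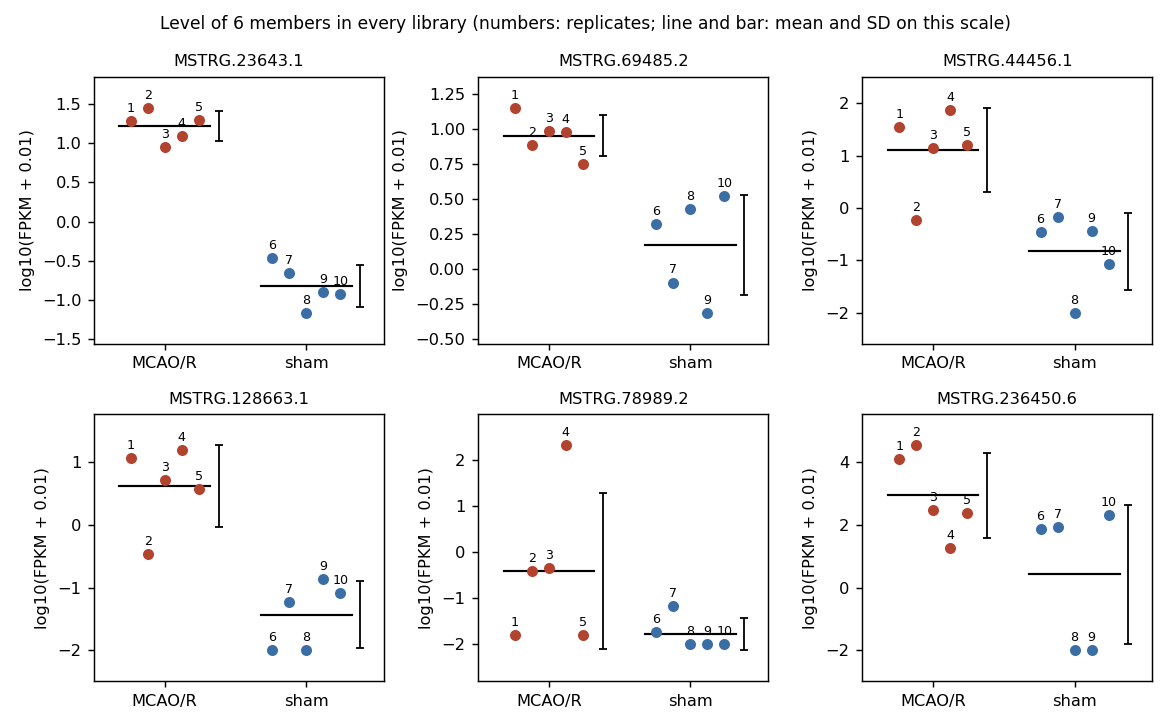
Level of 6 members in each library, as log10(FPKM + 0.01), for MCAO/R and sham; numbers beside the points are replicates, and the line and bar are the mean and SD on this scale (n = 5). MSTRG.23643.1 and MSTRG.69485.2 separate the groups, MSTRG.44456.1 and MSTRG.128663.1 are lowest in MCAO/R replicate 2, MSTRG.78989.2 is high in replicate 4 only, and MSTRG.236450.6 is highest in replicates 1 and 2.

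Consistency across libraries varied widely among members. In 94 of the 174 (54.0%) every MCAO/R library was above every sham library. Of all 20293 lncRNA rows that averaged 0.1 FPKM or more, 1.35% did so, but the rule used this contrast and nothing is read from the difference. In 46 members 4 of 5 MCAO/R libraries were above the highest sham library, in 19 members 3, in 9 members 2 and in 6 members 1. All 5 MCAO/R libraries reached 4 times the sham mean in 56 members, 4 did in 50, and only 1 did in 11.

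In 58 members a single library held over 50% of the summed MCAO/R level, and in 11 it held over 80%. Replicate 4 was that library in 22 of the 58, replicate 5 in 16, replicate 1 in 12, replicate 2 in 5 and replicate 3 in 3. The highest library held a median of 41.7% of the MCAO/R sum over members, against 29.0% over the other 2094 rows of that level. A rule on means favours rows that 1 library lifts, so this difference follows in part from the choice. With medians in place of means, 149 of the 174 still stood at least 4 times higher, and 120 had an MCAO/R median of at least 0.5 FPKM.

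MSTRG.78989.2 is the extreme of this kind. It stood at 0.00515, 0.380, 0.432, 205.9 and 0.00521 FPKM in MCAO/R replicates 1 to 5, so 99.6% of its MCAO/R sum came from replicate 4. Its sham libraries lay between 0 and 0.0551 FPKM. MCAO/R replicates 1 and 5 were below the highest sham library. In MSTRG.12397.30, likewise, replicate 1 stood at 4.12 FPKM and held 95.6% of the MCAO/R sum, while the other 4 MCAO/R libraries, at 0.0282 to 0.0614 FPKM, overlapped the sham libraries at 0.0494 to 0.172 FPKM.

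The test fitted over the whole lncRNA table called 92 of the 174 members higher (limma with Benjamini-Hochberg adjustment), and it called 0.67% of the 20293 rows tested higher in MCAO/R. All members passed the filter on low values through the rule itself, and the rule used this contrast, so nothing is read from that count. It was also unstable: it lay between 25 and 152 when 1 library was left out and the members were chosen again without it. The count was 32 of 178, 29 of 171 and 25 of 171 rows found without MCAO/R replicates 1, 4 and 5. Without replicate 3 it was 152 of 235. Without sham replicates 7, 8, 9 and 10 it was 35, 51, 32 and 43. The share called over all rows in these fits is not given here. Whether the swing was particular to the members was not tested. The median log2 difference was 2.27 over the members and -0.38 over all rows tested. Of the 94 members without overlap 79 were called, and 44 rows were called that were not members, 26 of them with an MCAO/R mean under 0.5 FPKM.

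A library that did not take part in the choice gives an MCAO/R level the rule did not use. The sham mean it was read against did take part. For each MCAO/R library in turn, the rule was applied to the other 9 libraries and the rows found were read in the library left out. At least 4 times the sham mean was reached by 69.7% of 178 rows in replicate 1, 45.0% of 222 in replicate 2, 42.1% of 235 in replicate 3, 65.5% of 171 in replicate 4 and 66.1% of 171 in replicate 5. Of all 20293 rows that averaged 0.1 FPKM or more, 5.6%, 5.2%, 4.91%, 6.69% and 8.26% did so in the same libraries. The share among rows found without the library was above that over all rows in each of the 5. It was lower in replicates 2 and 3 than in the other 3. All rows were not chosen for a low sham mean, so the gap to them is in part built in.

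Pooled over the 5 readings the share was 56.1%, and 68.2% of the rows were above the highest sham library. A row found in several readings counts in each of them. Of all rows that averaged 0.1 FPKM or more, 10.6% to 15.1% were above the highest sham library in the same libraries. The sham libraries entered both the choice and the reading, so a sham mean that happened to be low raises both. A core of 87 members met the rule whichever of the 10 libraries was left out.

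**Figure D4:**
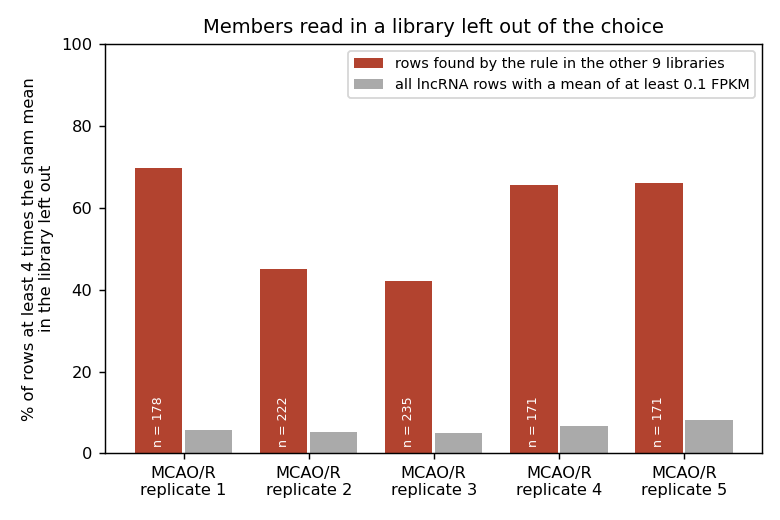
Share of rows (y axis, %) at least 4 times the sham mean in each MCAO/R library (x axis) when that library was left out of the choice; red bars are rows found by the rule in the other 9 libraries (n inside the bar), grey bars all lncRNA rows averaging 0.1 FPKM or more. Replicates 2 and 3 reach 45.0% and 42.1%, the other 3 reach 65.5% to 69.7%, and the grey bars lie between 4.91% and 8.26%.

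Whether the whole locus or only 1 isoform was higher could be asked of 84 of the 161 loci, which had other rows in either table. The other 77 loci, with 78 members, held no other row. Summed over all rows of both tables, members included, the level of the locus was at least 4 times higher in MCAO/R in 44 of the 84, between 2 and 4 times in 17, and under 2 times in 23. In 13 of these 23 the summed level was lower than in sham cortex. Over lncRNA rows alone, members included, the sum was at least 4 times higher in 128 of the 161 loci and at least 2 times in 143, against 10.2% and 14.9% of all lncRNA loci, from which nothing is read because members are part of the sums. Members made up a median of 52.4% of the locus in MCAO/R and 22.2% in sham libraries (81 loci with sham signal).

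The members of loci that were higher under 2 times in total were also the least consistent. Of 27 such members 3 (11.1%) had groups that did not overlap, against 46 of 78 (59.0%) where the locus held no other row, 32 of 46 (69.6%) where the total was at least 4 times higher and 13 of 23 (56.5%) in between. The highest library held a median of 66.2% of the MCAO/R sum in these 27, and 36.8% to 41.7% in the other 3 classes. Their loci had up to 105 lncRNA rows. The 3 without overlap were MSTRG.45279.3, MSTRG.49493.2 and MSTRG.41426.6. Of all 20293 lncRNA rows that averaged 0.1 FPKM or more, 1.35% were higher without overlap. The locus totals include the members' own values, so the order of the classes follows in part from how they were cut. These classes were chosen after the values were seen, and the division of fragments among isoforms was not tested as their source.

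**Figure D5:**
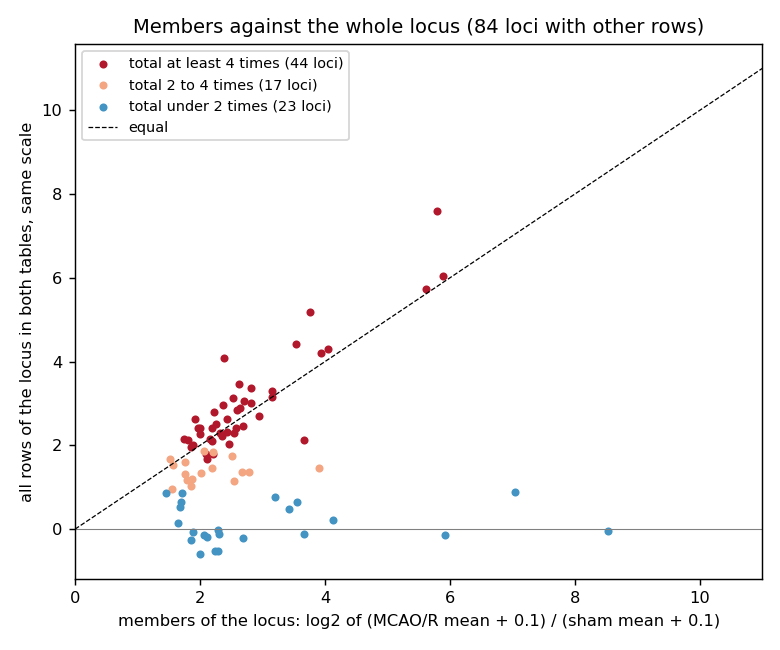
Members of each of the 84 loci that have other rows (x axis) against the sum of all rows of the locus in both tables (y axis), each as log2 of the ratio of MCAO/R to sham means after adding 0.1 FPKM; the dashed line marks equality. Of the loci, 44 are at least 4 times higher in total, 17 are 2 to 4 times higher, and 23 are higher under 2 times or lower in total, although the members of all 84 loci were at least 4 times higher.

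The other lncRNA rows of the same locus were often higher too. In 76 member loci with 504 other lncRNA rows, the sum of those rows was at least 2 times higher in MCAO/R, at 0.1 FPKM or more, in 47 (61.8%) and at least 4 times in 34. Among 600 loci without a member but with a lncRNA row of the members' MCAO/R level, 11.7% did so. For all 3576 loci with more than 1 lncRNA row only the sum of all their lncRNA rows was read, a different measure. It passed the same limits in 13.3%. The median ratio was 2.60 in the 64 member loci with sham signal and 0.643 in the 600. In 18 member loci the sum of the other rows was lower in MCAO/R, and in 6 it was at most 50% of its sham level. Groups did not overlap for the sum in 11 of the 76, against 1% of the 600. Isoforms of a locus share libraries and fragments with the member, so these shares are not independent of the rule.

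Locus MSTRG.69485 held 4 members, 6 other lncRNA rows and 1 row of the mRNA table, and the locus as a whole was higher. Its member MSTRG.69485.2 stood at 14.1, 7.63, 9.62, 9.42 and 5.62 FPKM in MCAO/R and 2.08, 0.788, 2.64, 0.475 and 3.31 FPKM in sham libraries, without overlap. MSTRG.69485.3 stood at 6.96, 3.41, 1.28, 6.51 and 7.47 FPKM against 0.186, 0.221, 0, 0.253 and 0 FPKM, also without overlap. The other 6 lncRNA rows together stood at 40.8, 29.1, 26.1, 40.0 and 36.6 FPKM in MCAO/R and 15.3, 13.3, 15.2, 17.9 and 20.7 FPKM in sham libraries. The non-member isoforms were therefore separated between the groups as well, at a smaller ratio. Another member, MSTRG.69485.10, was high in MCAO/R replicate 1 only, at 8.85 FPKM, against 0.109 to 0.294 FPKM in the other 4 and up to 1.78 FPKM in sham libraries.

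Locus MSTRG.19975 showed the opposite arrangement: 5 members among 105 lncRNA rows, without a higher locus. Its strongest member, MSTRG.19975.122, stood at 1.202, 8.91, 0.767, 7.36 and 6.51 FPKM in MCAO/R and 0.697, 0.276, 0.939, 0.0691 and 0.0845 FPKM in sham libraries. MCAO/R replicate 3 lay inside the sham range. The 105 rows together stood at 199, 318, 212, 155 and 318 FPKM in MCAO/R and 145, 336, 264, 328 and 269 FPKM in sham libraries. These sums overlapped throughout, and the ratio of their means was 0.895. Of the other 4 members of the locus, MSTRG.19975.30, MSTRG.19975.31 and MSTRG.19975.84 were highest in MCAO/R replicate 5, and MSTRG.19975.19 was highest in replicate 2.

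At the locus of the most abundant member, MSTRG.236450.6, the sums again overlapped between the groups. The member stood at 12872, 34969, 291, 17.8 and 231 FPKM in MCAO/R and 75.7, 83.6, 0, 0 and 210 FPKM in sham libraries. MCAO/R replicate 4 lay inside the sham range and replicate 5 just above it. All lncRNA rows of its locus together stood at 12911, 34969, 16284, 17.9 and 2247 FPKM in MCAO/R and 707, 12888, 12667, 13071 and 210 FPKM in sham libraries. The lncRNA total was thus highest in MCAO/R replicates 1 to 3 and sham replicates 7 to 9, and the ratio of its means was 1.68. The single mRNA-table row of the locus was at 0 in 8 libraries; it reached 6695 FPKM in MCAO/R replicate 4, the library lowest in lncRNA rows of this locus, and 130 FPKM in sham replicate 10. With that row added the ratio was 1.84. With MSTRG.236450.6 the members made up 28.0% and 46.5% of the summed lncRNA table in MCAO/R replicates 1 and 2. Without that member they summed to 240 to 817 FPKM in MCAO/R and 27.7 to 33.7 FPKM in sham libraries.

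At 2 further loci the member and the other rows were highest in different libraries. MSTRG.161003.2 stood at 9.47, 19.4, 1.33, 19.0 and 13.97 FPKM in MCAO/R and 2.39, 3.23, 2.68, 1.67 and 3.40 FPKM in sham libraries, with replicate 3 below all sham libraries. The only other row of that locus stood at 6.32, 5.81, 8.68, 7.27 and 7.23 FPKM in MCAO/R and 3.29, 3.24, 4.27, 5.63 and 5.67 FPKM in sham libraries. That row did not overlap between the groups, and it was highest in the replicate in which the member was lowest. In MSTRG.188097 the member, isoform 3, stood at 5.06, 5.23, 41.6, 9.76 and 2.93 FPKM in MCAO/R. Its other 2 rows summed to 28.7, 0, 0, 29.3 and 105.9 FPKM in the same libraries, with 0 in replicate 3, where the member was highest. All lncRNA rows of MSTRG.188097 together stood at 33.7, 5.23, 41.6, 39.0 and 108.9 FPKM in MCAO/R and at most 1.81 FPKM in sham libraries. The locus totals of MSTRG.188097 and MSTRG.161003 were 39.7 and 2.78 times higher in MCAO/R, both without overlap.

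Rows of the mRNA table shared a locus with a member in 29 loci, holding 259 rows. This concerned 38 members (21.8%), against 26.9% of all lncRNA rows. The sum of the mRNA-table rows was at least 2 times higher in MCAO/R in 11 of the 29 (37.9%) and lower than in sham cortex in 11. Among 453 loci without a member but with a lncRNA row of the members' level, 4.42% were at least 2 times higher, as were 9.23% of all 3283 loci with rows in both tables. Of all 275234 assembled loci of the mRNA table, with or without lncRNA rows, 18.5% were. Leaving out a library changes the members and so the number of loci: the count was 18 of 42 (42.9%) without MCAO/R replicate 2 and 17 of 45 (37.8%) without replicate 3, and the share lay between 25% and 43.8% over the 10 libraries left out in turn. In the fit over all 25038 mRNA-table features, of which 14.3% were called higher, 23 of the 29 sums could be tested. limma called 6 of them higher and 1 lower, and of the 2266 tested loci with lncRNA rows it called 6.05% higher. Leaving out 1 library, an alternative added after the data were seen, left 4 to 6 called higher.

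At MSTRG.55496 the rows of both tables were at or close to 0 in sham libraries, though the mRNA-table sum passed 0.1 FPKM in sham replicate 6. The 5 mRNA-table rows of this locus summed to 5.55, 7.63, 3.84, 20.7 and 67.6 FPKM in MCAO/R and to 0.113, 0, 0.0217, 0.0584 and 0 FPKM in sham libraries, with the same 2 high libraries as the member. MSTRG.139657 had 11 mRNA-table rows that summed to 10.1, 9.77, 4.87, 12.7 and 12.8 FPKM in MCAO/R and 0.702, 0.497, 0.387, 0.410 and 0.563 FPKM in sham libraries. The groups did not overlap at either locus. The member of the second, MSTRG.139657.13, was lower than the sum of its mRNA-table partners, at 0.195, 0.207, 0.0872, 1.64 and 0.607 FPKM in MCAO/R and at most 0.0778 FPKM in sham libraries.

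MSTRG.160997 and MSTRG.69485, also called higher, were separated between the groups at lower ratios. MSTRG.160997 stood in the mRNA table at 5.67, 8.31, 5.77, 4.78 and 16.9 FPKM in MCAO/R against 2.79, 1.04, 0.596, 1.68 and 0.471 FPKM. MSTRG.69485 stood there at 5.27, 3.83, 3.17, 3.98 and 5.77 FPKM against 2.53, 2.58, 2.44, 2.30 and 2.46 FPKM. These 4 loci were called in every fit that left out 1 library. MSTRG.249985 and MSTRG.209457 were called in 5 and 2 of those 10 fits. The call of MSTRG.249985 was lost without MCAO/R replicates 1 or 5 or sham replicates 8, 9 or 10, and that of MSTRG.209457 held only without MCAO/R replicate 3 or sham replicate 6.

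MSTRG.12397 went the other way. Its mRNA-table rows summed to 4.62, 5.14, 10.98, 4.84 and 6.15 FPKM in MCAO/R and 10.9, 23.1, 12.8, 13.7 and 15.8 FPKM in sham libraries, and limma called the sum lower in all 10 fits that left out 1 library. MCAO/R replicate 3 lay just above the lowest sham library. The member there is MSTRG.12397.30, the isoform seen in MCAO/R replicate 1 almost alone. At MSTRG.45279 the mRNA-table sums lay close together while the member was separated. They averaged 101.3 ± 13.5 FPKM in MCAO/R and 107.6 ± 11.99 FPKM in sham libraries (SD, n = 5 each), while MSTRG.45279.3 stood at 1.75, 0.996, 0.867, 1.01 and 1.73 FPKM against 0.377, 0.161, 0.235, 0.138 and 0 FPKM without overlap. All lncRNA rows of the locus, the member included, averaged 7.84 ± 2.35 FPKM against 2.64 ± 1.19 FPKM, also without overlap. Its other lncRNA rows averaged 6.57 ± 2.43 FPKM against 2.45 ± 1.28 FPKM, with overlap.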

How the data were processed

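The authors deposited 2 tables of FPKM, 1 for mRNA and 1 for lncRNA, with 1 column per library. The genome build, per the submitters' processing notes, was Rnor_5.0. The sources used here do not give the aligner, assembler or quantification tool. Since FPKM hold no fragment totals, library depth is unknown and no interval that needs it is given. No library columns were identical.

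Members and lists were chosen with earlier results of these data known. Rows were used as deposited. limma 3.58.1 in R 4.3.3 (lmFit, eBayes with trend, a single group term, two-sided tests) was run on log2(FPKM + 0.1) for lncRNA rows averaging 0.1 FPKM or more, and on log2(FPKM + 1) for mRNA-table features (rows summed per locus, annotated transcripts as deposited) with a mean of at least 0.5 FPKM. P-values were adjusted by Benjamini-Hochberg within each table, with a threshold of 0.05. The pseudocount understates differences of low rows. The procedure was tested on simulated data with normal log2 values and added shifts. Peaks in single libraries were not simulated, so that test does not tell how limma handles them. Members were named by fixed ranks: highest MCAO/R mean, largest log2 difference, highest among those at 0 in sham, loci with at least 3 members, highest mRNA-table sums, largest share in 1 library, smallest spread, and rows nearest the limits. The loci whose mRNA-table sums were called, and MSTRG.49493.2 and MSTRG.41426.6, were named after their values were seen. Alternatives covered the limits, scaling, pseudocount, filter, variance model and each library left out.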

Additional observations from a re-analysis of the deposited data

Results flagged for a closer look

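Gaps were read in 74 groups of 5 values, those of the named members and of summaries of all members by library. In 17, all from named members, the gap from the highest library to the next was over 0.71 of the group's range. Chance marks about 1 in 20 groups that were not chosen for such a gap. The rows were chosen on means, and some because 1 library dominates, so the count of 17 cannot be set against that rate. In MCAO/R replicate 4, MSTRG.78989.2 stood at 205.9 FPKM (next 0.432), MSTRG.61854.1 at 21.0 (next 5.79) and MSTRG.243530.1 at 4.02 (next 1.07). In MCAO/R replicate 5, MSTRG.228667.41 stood at 43.4 FPKM (next 7.497), MSTRG.19975.30 at 7.84 (next 2.05), MSTRG.19975.31 at 6.90 (next 0.707) and MSTRG.19975.84 at 5.14 (next 0.109). In MCAO/R replicate 3, MSTRG.188097.3 stood at 41.6 FPKM (next 9.76) and MSTRG.12464.21 at 1.75 (next 0.480). In MCAO/R replicate 1, MSTRG.69485.10 stood at 8.85 FPKM (next 0.294) and MSTRG.12397.30 at 4.12 (next 0.0614), and in replicate 2 MSTRG.19975.19 stood at 4.22 (next 0.663). Among sham libraries, MSTRG.78989.2 stood at 0.0551 FPKM in replicate 7 (next 0.00771), MSTRG.61854.1 at 0.0150 in replicate 7 (next 0), MSTRG.85473.1 at 0.0483 in replicate 10 (next 0), MSTRG.69485.10 at 1.78 in replicate 10 (next 0.180) and MSTRG.19975.31 at 0.149 in replicate 9 (next 0.00812).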

How the results depend on the processing

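No paired analysis was possible because the groups share no replicate number in the labels. With 1 library left out in turn, the rule found 171 to 235 rows, of which 17 to 34 were at 0 in all sham libraries and 40 to 78 near silence in sham; other lncRNA rows were at least 2 times higher in 40 to 57 loci, mRNA-table rows in 9 to 18, and lncRNA locus sums at least 4 times higher in 113 to 168. limma called 25 to 152 of the rows found in this way, a count without the share called over all rows beside it. Scaling by median ratios of lncRNA rows, which moved the median log2 difference of all tested rows from -0.38 to 0.04, gave 296 members, 86 near silence, 74 loci with other lncRNA rows higher, 24 with mRNA-table rows higher and 206 locus sums at least 4 times higher. Of the 296, 174 were the members described. Equal sums without the 20 highest rows and factors from annotated transcripts moved that median to -0.50 and -0.57, and quantile normalization to -0.07. A level limit of 0.25 or 1 FPKM gave 352 or 79 members, and no condition on values above 0 gave 454. limma called 12 and 5 members with a pseudocount of 0.5 and 1, 56 without the trend and 9 at an adjusted p under 0.01, while 148 and 147 had an unadjusted p under 0.05 at those pseudocounts and 153 as reported. A limit of 0.2 FPKM put 90 members near silence. In left-out MCAO/R libraries 69.9% reached 2 times the sham mean, against 10.3% to 14.8% of all rows averaging 0.1 FPKM or more. For the 33 named members, 556 of 685 settings kept the side of the threshold, 121 lost the call, 8 gained it and 0 turned the direction of a called value. These settings pool members called and not called. Only called members can lose a call, and the others keep their side by staying not called. A value below 0 arose in 1 setting, for a member not called. The cause of these shifts was not tested. FPKM give no depth, so whether low rows were limited by it is unknown.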
